A study of Homo sapiens with 4 samples.

Results

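Kinesin genes, centromere protein genes and genes of the spindle assembly checkpoint and its partners were followed in H23 cells that overexpressed SOX7. Members were all genes whose symbol on the array starts with KIF and a digit or with CENP and a letter, together with BUB1, BUB1B, BUB3, MAD2L1, TTK, PLK1, AURKB, INCENP, BIRC5, NDC80, NUF2, SPC24 and SPC25. This gave 74 of the 20046 named genes on the array: 38 KIF genes, 23 CENP genes and the 13 others. H23 is an established human line derived from a lung cancer, and SOX7 is a transcription factor of the SOXF group. The arrays fell into 2 SOX7-overexpressing samples and 2 control samples that overexpressed green fluorescent protein (GFP), all from cells close to confluence. The labels do not give the vector, the time after its introduction or say that arrays of 1 group stem from separate cultures. The p-values therefore cover only how far the arrays of a group differed, and that spread may be technical.

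In a dividing cell, each chromosome is marked at its centromere by nucleosomes that hold the histone variant CENP-A, on which a constitutive network of CENP proteins is built. That network carries the NDC80 complex, which grips spindle microtubules, and checkpoint proteins that delay anaphase until every chromosome is attached. Mitotic kinesins are motors that separate the poles, move chromosomes, trim microtubule ends and close the midbody, whereas transport kinesins carry vesicles, organelles and other cargo along microtubules outside mitosis. Many genes of the mitotic group are switched on together late in the cell cycle, when the DREAM repressor leaves their promoters and B-MYB and FOXM1 act there, often at a short element called the cell cycle genes homology region (CHR).

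Values are log2 intensities as deposited, with a median of 6.26 on every array. Over the 48107 probes, Pearson's r was 0.995 within the SOX7 pair, 0.995 within the control pair and 0.990 between arrays of different groups. A gene was tested where its mean lay at or above the median of all probe means, which held for 12804 genes and for 66 of the 74 members. SOX7 has 2 probes, of which only that of highest mean is given here. It read 6.53 and 6.78 in the SOX7 arrays, against 6.18 and 6.45 in the control arrays. The difference of 0.34 missed the threshold (limma adjusted p = 0.0583). Where the probe lies relative to the introduced transcript is not known here. Of the lung epithelial markers, KRT8, KRT18, EPCAM and KRT7 were above the filter, and the other 5 of 9 (KRT19, CDH1, NKX2-1, SFTPB and NAPSA) were below it. EPCAM (group means 6.65 and 6.52) and KRT7 (6.34 and 6.37) lay close to the filter of 6.25. KRT18 rose (0.45, adjusted p = 0.00453). Markers of other cell types were above it for 3 of 5 fibroblast genes, 0 of 5 endothelial genes and 1 of 3 leukocyte genes. The log2 levels of the 3 leukocyte genes summed to between 21.6 and 21.8 in the SOX7 arrays, against 20.9 to 21.2 in the control arrays. CD14 was the leukocyte gene above the filter and rose (0.64, adjusted p = 4.82e-04), while PTPRC and CD3E stayed below the filter. The 5 fibroblast genes summed to between 30.9 and 31.1 in the SOX7 arrays, against 30.9 to 31.4 in the control arrays, and took different directions. LUM rose (0.52, adjusted p = 0.00156) but was above the filter only on the SOX7 arrays, at 6.69 and 6.79, against 6.21 and 6.23 on the control arrays. THY1, below the filter and not tested, read 5.83 and 5.68 in the SOX7 arrays, against 6.31 and 6.34 in the control arrays. COL1A2 (-0.12) and DCN (-0.0071) did not pass and had group means of 6.21 to 6.33, close to the filter. PDGFRA was below the filter. The 5 endothelial genes summed to between 29.3 and 29.9 in the SOX7 arrays, against 30.1 to 30.3 in the control arrays. The part of these markers in the results on the members was not tested.

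Of the 66 tested members, 8 were higher and 2 lower in SOX7 cells past a Benjamini-Hochberg adjusted p of 0.05. Those 10 were 15.2% of the tested members, whereas 18.8% of all genes tested passed. An unadjusted p under 0.05 was found for 19 of the 66 (28.8%), against 32% of all genes. By direction, 12.1% of the members rose, against 8.98% of all genes, and 3.03% fell, against 9.83%. The members that rose were the transport kinesins KIF1A and KIF21A, the mitotic kinesin KIF2C, the centromere genes CENPV, CENPN and CENPE, the kinase gene PLK1 and the checkpoint kinase gene BUB1. The members that fell were CENPX and CENPBD1P. All 10 had arrays that did not overlap between the groups, as had 35 of the 66 members (53%) and 58.5% of all genes. Both SOX7 arrays lay above both control arrays in 25 members, against 29.6% of all genes, and below them in 10 members, against 29% of all genes. A change of at least 1.5-fold was seen in KIF1A and CENPV alone among the members, or 3.03% of them, against 4.29% of all genes. The median difference over the members was 0.057 on the log2 scale, against 0.0035 over all genes tested, and 45 of the 66 differences (68.2%) were positive, against 50.8%. An RNA level measured over a whole culture cannot tell a different number of cells in mitosis apart from a different amount of RNA per cell. Leaving out 1 array moved the count to 6 members without control replicate 1 and to 5 without SOX7 replicate 2.

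**Figure D1:**
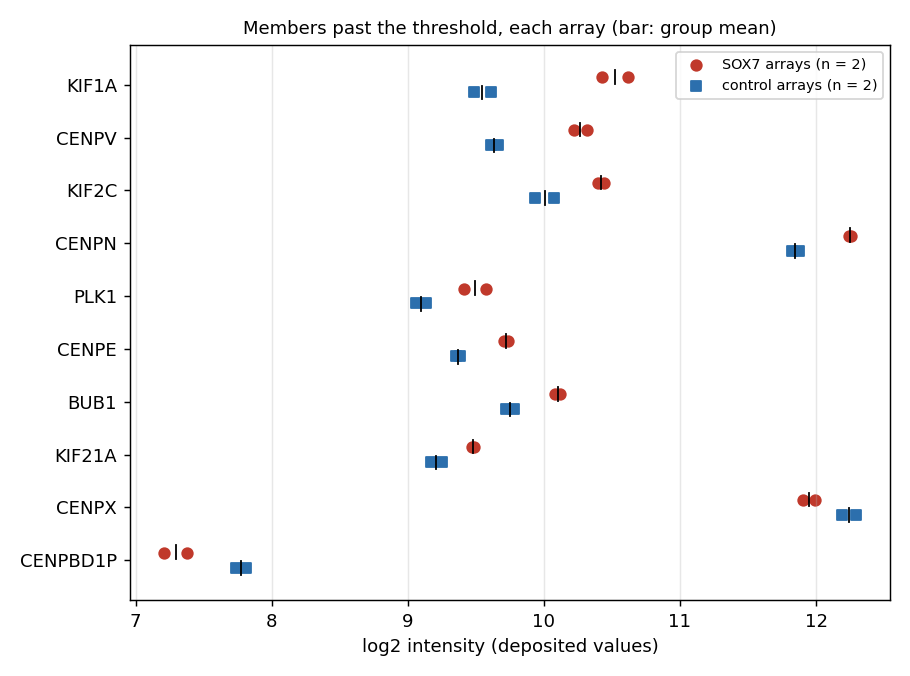
Log2 intensity of the 10 members past the threshold on each of the 2 SOX7 arrays (circles, upper in each row) and 2 control arrays (squares, lower), with a black bar at each group mean. KIF1A shows the widest gap, 10.43 and 10.62 against 9.49 and 9.61, and in no row do the groups overlap.

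The checkpoint genes encode the sensors of unattached chromosomes. BUB1, the kinase that marks centromeric chromatin and recruits other checkpoint proteins to the kinetochore, rose 1.27-fold. It read 10.12 and 10.08 in the SOX7 arrays, against 9.72 and 9.78 in the control arrays (difference 0.35, SE 0.087, limma adjusted p = 0.0149). Both SOX7 arrays lay above both control arrays. Leaving out 1 array leaves 1 in its group. The BUB1 difference then stayed at 0.322 to 0.379, though its call was lost without control replicate 1, SOX7 replicate 1 or SOX7 replicate 2. The call was also lost after the shift shared with neighbouring genes on its chromosome was removed (0.23, adjusted p = 0.0974). The other 4 checkpoint genes did not pass. BUB1B, which encodes the BUBR1 subunit of the mitotic checkpoint complex, read 7.94 and 8.04 in the SOX7 arrays, against 7.89 and 7.90 in the control arrays (0.093, 95% confidence interval -0.10 to 0.29). MAD2L1, the gene of the MAD2 protein that binds CDC20, read 10.97 and 10.86 in the SOX7 arrays, against 10.83 and 10.85 in the control arrays (0.077, interval -0.12 to 0.27). In neither gene did the groups overlap, but both intervals held 0, and a second MAD2L1 probe differed by -0.036. TTK, the gene of the kinase MPS1 that starts the checkpoint, read 9.91 and 9.73 in the SOX7 arrays, against 9.75 and 9.82 in the control arrays (0.032, interval -0.17 to 0.24). BUB3, the gene of the adaptor that brings BUB1 and BUBR1 to the kinetochore, read 13.24 and 13.19 in the SOX7 arrays, against 13.06 and 13.35 in the control arrays (0.011, interval -0.22 to 0.24). The groups overlapped in both. The 3 other BUB3 probes above the filter differed by -0.0069, -0.14 and -0.17, and none passed. As a class, 1 of 5 genes rose and 0 fell (0 fell also at an unadjusted p under 0.05), with a median difference of 0.077. Over all genes tested, 8.98% rose and 9.83% fell.

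PLK1 encodes the polo-like kinase that drives entry into mitosis, spindle assembly and cytokinesis. It rose 1.31-fold, with 9.41 and 9.57 in the SOX7 arrays, against 9.13 and 9.06 in the control arrays (0.39, SE 0.093, adjusted p = 0.0118). Both SOX7 arrays were higher, and the call was lost without SOX7 replicate 2 (0.31, adjusted p = 0.0941). The chromosomal passenger complex corrects wrong attachments. Its 3 genes among the members took different directions and none passed, and the gene of its other subunit borealin, CDCA8, which is no member, differed by -0.013 (interval -0.23 to 0.20). INCENP, its scaffold, read 8.39 and 8.42 in the SOX7 arrays, against 8.15 and 8.26 in the control arrays (0.20, adjusted p = 0.136). AURKB, its kinase, read 11.15 and 11.11 in the SOX7 arrays, against 11.12 and 11.17 in the control arrays (-0.016, interval -0.20 to 0.17). BIRC5, the gene of survivin, which brings the complex to chromatin, read 11.20 and 11.29 in the SOX7 arrays, against 11.48 and 11.48 in the control arrays (-0.24, adjusted p = 0.081). Among these, INCENP was higher and BIRC5 lower in both SOX7 arrays, while the AURKB arrays overlapped. The second INCENP probe, with overlapping groups, differed by -0.031 (adjusted p = 0.891 over the 17100 probes tested). The second BIRC5 probe differed by -0.22 (adjusted p = 0.116), and BIRC5 passed among genes above the 75th percentile (adjusted p = 0.0366) and with trend and robust prior (0.0221).

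The promoters of PLK1 and BUB1 are printed to show the CHR and CCAAT words that recur in this gene group beside a pair of members that rose. The windows are RefSeq sequences of build GRCh38.p14 that run from 250 bases before to 50 bases after the transcript start, 5′ to 3′ along the gene, and capitals mark CHR and CCAAT words on either strand. That of PLK1 lies at chr16:23678639-23678938, plus strand, and that of BUB1 at chr2:110678014-110678313, minus strand.
PLK1: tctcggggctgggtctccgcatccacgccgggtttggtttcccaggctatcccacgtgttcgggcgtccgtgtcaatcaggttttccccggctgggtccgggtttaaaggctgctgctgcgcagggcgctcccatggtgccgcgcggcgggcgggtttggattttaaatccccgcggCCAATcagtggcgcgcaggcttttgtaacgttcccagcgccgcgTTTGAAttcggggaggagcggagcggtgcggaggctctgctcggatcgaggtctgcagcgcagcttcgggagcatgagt
BUB1: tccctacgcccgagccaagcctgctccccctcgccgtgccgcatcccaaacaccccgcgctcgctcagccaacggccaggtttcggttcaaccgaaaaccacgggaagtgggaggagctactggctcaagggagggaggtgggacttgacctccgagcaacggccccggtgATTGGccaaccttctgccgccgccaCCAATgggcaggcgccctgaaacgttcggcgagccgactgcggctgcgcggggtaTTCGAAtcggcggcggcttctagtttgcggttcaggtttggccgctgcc
In the PLK1 window, counting bases before the start as negative, CCAAT begins at base -73 and TTTGAA at base -29. In the BUB1 window, ATTGG, the reverse complement of CCAAT, begins at base -79 and CCAAT at base -54, and TTCGAA begins at base 2 of the transcript. None of these words overlap each other.

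The 4 genes of the NDC80 complex did not pass. SPC25 read 9.40 and 9.45 in the SOX7 arrays, against 9.20 and 9.21 in the control arrays (0.22, SE 0.086, adjusted p = 0.0945), and its second probe differed by 0.098. NUF2 read 8.37 and 8.26 in the SOX7 arrays, against 8.19 and 7.999 in the control arrays (0.22, adjusted p = 0.143), and its second probe above the filter differed by 0.24 (adjusted p = 0.114). Both SOX7 arrays lay above both control arrays in these genes, which encode one subunit of each of the 2 dimers of the complex. NDC80, the gene of the microtubule-binding subunit HEC1, read 9.91 and 9.73 in the SOX7 arrays, against 9.83 and 9.73 in the control arrays (0.040, interval -0.17 to 0.25). SPC24 read 10.70 and 10.64 in the SOX7 arrays, against 10.67 and 10.77 in the control arrays (-0.046, interval -0.24 to 0.15). These partners overlapped between the groups. With 0 of 4 past the adjusted threshold in limma, 2 of the 4 had an unadjusted p under 0.05, against 32% of all genes, and 1 (SPC25) passed among genes above the 75th percentile (adjusted p = 0.0454).

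Among the 16 tested genes of the constitutive centromere network, 1 rose, 1 fell and 14 did not pass, with a median difference of 0.028. The shares over all genes tested were 8.98% risen and 9.83% fallen. CENPN, which encodes a subunit that reads the CENP-A nucleosome together with CENP-L, rose 1.32-fold. It read 12.24 and 12.26 in the SOX7 arrays, against 11.87 and 11.82 in the control arrays (0.40, SE 0.086, adjusted p = 0.00696). Both SOX7 arrays were higher, and the call held when any of the 4 arrays was left out (adjusted p = 0.0127 to 0.0395). CENPX, which encodes a small histone-fold protein that pairs with CENP-S at centromeres and in DNA repair, fell 1.23-fold. It read 11.91 and 11.99 in the SOX7 arrays, against 12.19 and 12.29 in the control arrays (-0.29, SE 0.090, adjusted p = 0.04). Both SOX7 arrays were lower. That call was lost without control replicate 2, SOX7 replicate 1 or SOX7 replicate 2, while the difference without 1 array stayed at -0.344 to -0.244. The call was also lost without the intensity filter (adjusted p = 0.0856) and after neighbour centring (-0.23, adjusted p = 0.0986).

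Partners of these proteins did not pass. CENPS, whose product pairs with CENP-X, differed by -0.15 (9.42 and 9.34 in the SOX7 arrays, against 9.61 and 9.45 in the control arrays; adjusted p = 0.294), and CENPL by 0.060 (interval -0.14 to 0.26). CENPA itself read 11.02 and 11.08 in the SOX7 arrays, against 11.13 and 11.22 in the control arrays (-0.13, interval -0.32 to 0.064). Both SOX7 arrays were lower for CENPS and for CENPA, without a call, and the second CENPA probe differed by -0.17 (adjusted p = 0.257). CENPO, of the CENP-O/P/Q/U group, was next to the threshold at 0.25 (adjusted p = 0.0915), and passed among genes above the 75th percentile (0.0414). CENPM, a subunit that resembles a small GTPase, differed by -0.19 (adjusted p = 0.219), and its 2 other probes by -0.12 and -0.32. The remaining 10 genes (CENPC, CENPH, CENPI, CENPK, CENPP, CENPQ, CENPT, CENPU and CENPW with CENPL above) lay between -0.018 and 0.14, and all of their intervals held 0.

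The other CENP genes are a mixed set by function. CENPV, which encodes a protein found at centromeres and on spindle microtubules, rose 1.55-fold. It read 10.31 and 10.22 in the SOX7 arrays, against 9.61 and 9.66 in the control arrays (0.63, SE 0.088, adjusted p = 4.63e-04), and a second probe gave 0.61 (adjusted p = 8.86e-04). CENPV ranked 220th among all genes tested by the size of its rise, and its call held without any 1 array. The X-linked copy CENPVL1 did not pass (-0.12, adjusted p = 0.376) and was above the filter only on the control arrays. It read 6.23 and 6.16 in the SOX7 arrays, against 6.28 and 6.35 in the control arrays. The copy CENPVL2 lay below the filter. Probes of related copies can share signal. CENPE, the gene of a kinetochore kinesin that brings chromosomes to the spindle equator, rose 1.28-fold. It read 9.70 and 9.74 in the SOX7 arrays, against 9.35 and 9.38 in the control arrays (0.35, SE 0.086, adjusted p = 0.0139). Its second probe gave 0.17 (8.80 and 8.87 in the SOX7 arrays, against 8.72 and 8.61 in the control arrays) and did not pass (adjusted p = 0.242). The CENPE call was lost without control replicate 1 or SOX7 replicate 2, while the difference without 1 array stayed at 0.337 to 0.37. CENPF, which encodes a large protein of the outer kinetochore, read 9.76 and 9.88 in the SOX7 arrays, against 9.70 and 9.64 in the control arrays (0.15, adjusted p = 0.287). CENPB, the gene of a protein that binds alpha-satellite DNA, read 12.42 and 12.46 in the SOX7 arrays, against 12.49 and 12.70 in the control arrays (-0.15, adjusted p = 0.302). CENPBD1P, a transcribed pseudogene in the RefSeq annotation, fell 1.40-fold, with 7.21 and 7.38 in the SOX7 arrays, against 7.74 and 7.81 in the control arrays (-0.48, SE 0.093, adjusted p = 0.0037).

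**Figure D2:**
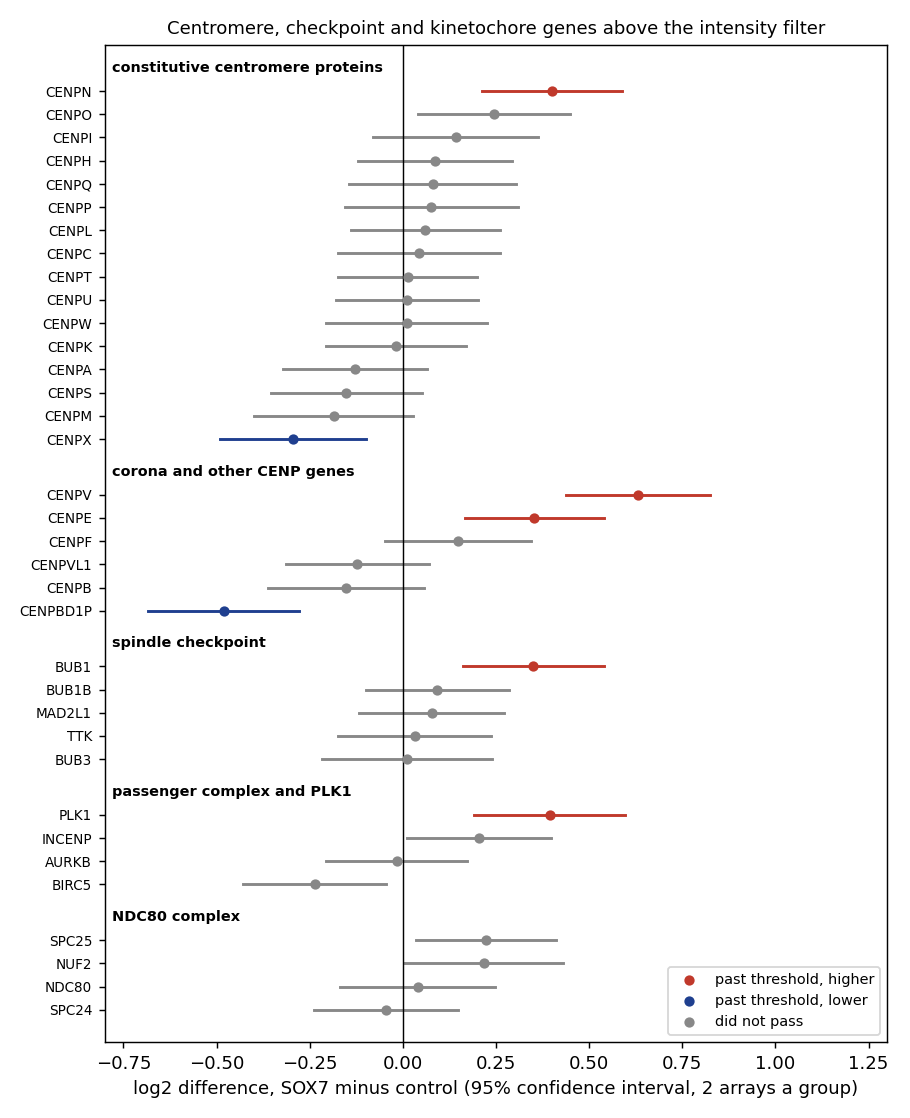
Log2 difference (SOX7 minus control, x axis) with its 95% confidence interval for the 35 tested centromere, checkpoint, passenger and NDC80 genes, grouped by class and ordered by difference. CENPV, CENPN, PLK1, CENPE and BUB1 (red) lie to the right of 0 and CENPX and CENPBD1P (blue) to the left, while the grey genes did not pass.

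The class of mitotic kinesins was limited to KIF symbols, so CENPE, a mitotic kinesin that rose, is described with the CENP genes. Of the 12 genes of the class on the array, 10 were tested, and KIF2C was the 1 that passed. KIF2C encodes MCAK, a motor of the kinesin-13 family that does not walk but removes tubulin from microtubule ends and so releases wrongly attached chromosomes. It read 10.40 and 10.44 in the SOX7 arrays, against 9.94 and 10.08 in the control arrays, a rise of 1.33-fold (0.41, SE 0.091, adjusted p = 0.00824). Both SOX7 arrays lay above both control arrays. The call was lost without control replicate 1 (0.34, adjusted p = 0.0508) and lay just inside the threshold without SOX7 replicate 2 (0.39, adjusted p = 0.05 after rounding).

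A further 3 mitotic kinesins were higher in both SOX7 arrays with intervals above 0, but missed the adjusted threshold. KIF4A, a chromokinesin that organises the midzone, read 8.86 and 9.18 in the SOX7 arrays, against 8.62 and 8.78 in the control arrays (0.32, adjusted p = 0.068). KIF20A, also called MKLP2, which moves the passenger complex to the midzone, read 10.81 and 10.99 in the SOX7 arrays, against 10.64 and 10.60 in the control arrays (0.28, adjusted p = 0.0569). KIF14, which acts in cytokinesis with citron kinase, read 8.75 and 8.82 in the SOX7 arrays, against 8.50 and 8.58 in the control arrays (0.24, adjusted p = 0.0805). The SOX7 arrays of KIF4A differed from each other by about as much as the groups did, and its difference was 0.16 (adjusted p = 0.412) without SOX7 replicate 2 and 0.48 (adjusted p = 0.022) without SOX7 replicate 1. KIF20A passed without SOX7 replicate 1 (0.37, adjusted p = 0.0488) and differed by 0.19 (adjusted p = 0.297) without SOX7 replicate 2. KIF20A passed under 6 of 13 alternatives, KIF4A under 7 and KIF14 under 1.

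The other mitotic kinesins did not pass, and their intervals held 0. KIF20B, a motor of late cytokinesis, read 10.14 and 10.21 in the SOX7 arrays, against 10.07 and 9.95 in the control arrays (0.16, interval -0.034 to 0.36). KIF18A, which shortens kinetochore microtubules, read 8.41 and 8.54 in the SOX7 arrays, against 8.41 and 8.32 in the control arrays (0.11, interval -0.086 to 0.31). KIF23, or MKLP1, of the centralspindlin complex, read 9.29 and 9.31 in the SOX7 arrays, against 9.24 and 9.13 in the control arrays (0.11, interval -0.084 to 0.30). These 3 were higher in both SOX7 arrays. The second KIF18A probe, below the filter, differed by -0.33, and the mean of both turned the sign (-0.11). KIF11, or Eg5, which pushes the spindle poles apart, read 9.58 and 9.42 in the SOX7 arrays, against 9.50 and 9.60 in the control arrays (-0.050, interval -0.25 to 0.16). KIF15, which can share that task with Eg5, read 8.28 and 8.30 in the SOX7 arrays, against 8.35 and 8.49 in the control arrays (-0.13, interval -0.33 to 0.068). KIF22, the chromokinesin Kid that pushes chromosome arms towards the equator, read 10.39 and 10.21 in the SOX7 arrays, against 10.53 and 10.36 in the control arrays (-0.14, interval -0.36 to 0.072). KIF11 and KIF22 overlapped between the groups, and KIF15 was lower in both SOX7 arrays. A second KIF11 probe differed by 0.15 and a second KIF23 probe by -0.023, and neither passed. KIF2B and KIF4B, an intronless copy of KIF4A, lay below the filter and were not tested.

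**Figure D3:**
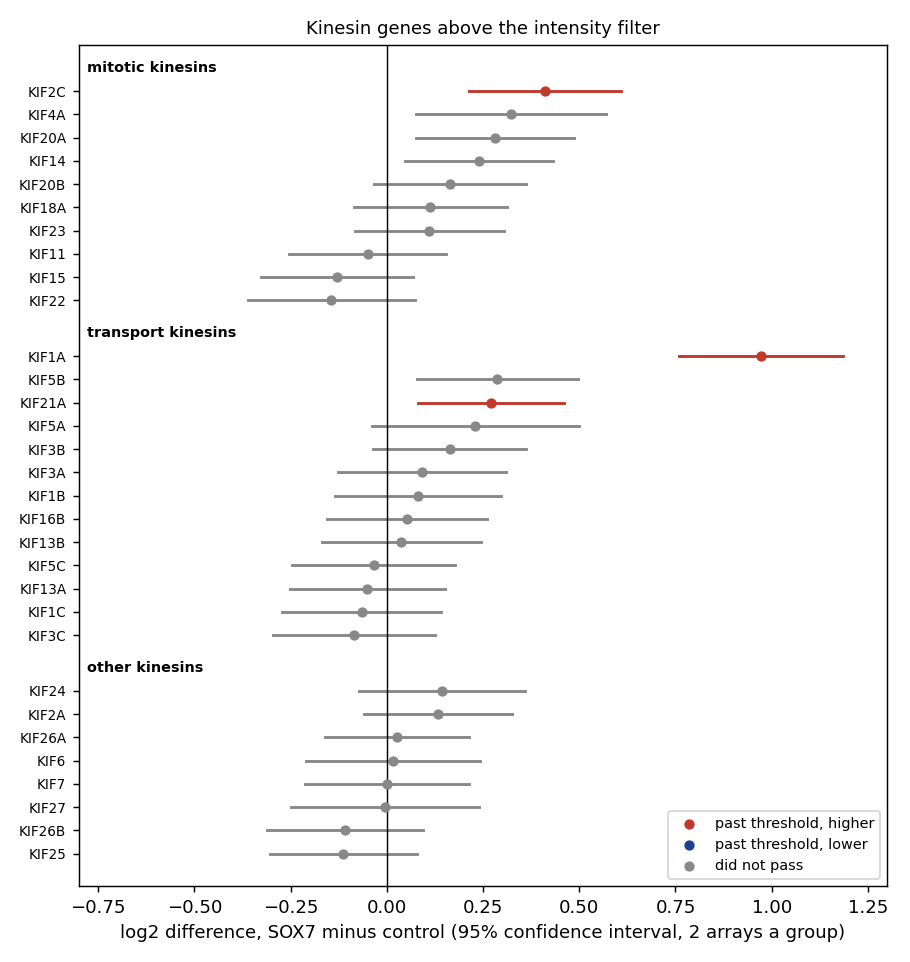
Log2 difference (SOX7 minus control, x axis) with its 95% confidence interval for the 31 tested kinesin genes in 3 classes, ordered by difference. KIF2C, KIF1A and KIF21A (red) passed the threshold, KIF1A stands apart at 0.97, and no kinesin fell past the threshold.

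Of the 15 transport kinesins on the array, 13 were tested, 2 rose and 0 fell by limma (0 fell also at an unadjusted p under 0.05). Over all genes tested, 8.98% rose and 9.83% fell. KIF1A, a kinesin-3 motor known in neurons for carrying synaptic vesicle precursors and dense-core vesicles, showed the largest difference of any member. It read 10.43 and 10.62 in the SOX7 arrays, against 9.49 and 9.61 in the control arrays, a rise of 1.96-fold (0.97, SE 0.097, adjusted p = 3.58e-05). The rise ranked 79th among all genes tested and held without any 1 array, at 0.88 to 1.07 (adjusted p at most 6.10e-04). Neighbour centring left 0.89 (adjusted p = 5.42e-05). KIF21A, a kinesin-4 protein that restrains microtubule growth at the cell cortex, was counted in this class although that role is not cargo transport. It read 9.49 and 9.47 in the SOX7 arrays, against 9.17 and 9.25 in the control arrays (0.27, SE 0.087, adjusted p = 0.0492). That call was just inside the threshold and did not survive the removal of any array, where the difference was 0.232 to 0.31. The call was also lost without the intensity filter (adjusted p = 0.103), with every probe tested on its own (0.0559) and after neighbour centring (0.15, adjusted p = 0.268).

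KIF5B, the ubiquitous heavy chain of conventional kinesin, lay just outside the threshold. It read 8.97 and 9.16 in the SOX7 arrays, against 8.73 and 8.83 in the control arrays (0.29, SE 0.096, adjusted p = 0.0573), and passed under 6 of 13 alternatives. Its neuronal relatives KIF5A (0.23, adjusted p = 0.228) and KIF5C (-0.034, adjusted p = 0.85) overlapped between the groups, and KIF5A was above the filter on SOX7 replicate 2 alone. Of the kinesin-2 motors, which serve cilia and vesicle transport, KIF3B read 9.33 and 9.43 in the SOX7 arrays, against 9.16 and 9.27 in the control arrays (0.16, adjusted p = 0.244). Its partner KIF3A differed by 0.091 (adjusted p = 0.58), and the alternative partner KIF3C by -0.086 (adjusted p = 0.591). The kinesin-3 relatives of KIF1A did not pass: KIF1B, a carrier of mitochondria and vesicles, differed by 0.082, KIF1C by -0.065, KIF13A by -0.051, KIF13B by 0.038 and KIF16B by 0.053. All 5 overlapped between the groups, with adjusted p-values of 0.62 or more. KIF17 and KIF21B were below the filter.

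Set side by side, the 10 tested mitotic kinesins had a median difference of 0.14 (range -0.14 to 0.41), with 1 risen and 7 positive. With CENPE counted among them, a choice made after seeing the data, 2 of 11 rose and the median was 0.16. KIFC1, a mitotic kinesin whose symbol is outside the rule, differed by 0.062 (interval -0.14 to 0.26). The 13 tested transport kinesins had a median of 0.082 (range -0.086 to 0.97), with 2 risen and 9 positive. Without KIF1A, the other 12 transport kinesins had a median of 0.067 and a highest difference of 0.29. Over all genes tested the median was 0.0035, with 8.98% risen and 50.8% positive. The classes differed in intensity. All 10 mitotic kinesins had group means of 8.29 or more. The transport kinesins KIF3A, KIF3C, KIF5A, KIF5C, KIF13A, KIF13B and KIF16B had group means of 6.18 to 6.89, close to the filter (6.25). Among genes above the 75th percentile, the transport kinesins left had a median of 0.218, above that of the mitotic class. The part of intensity in the class medians was not tested. Both SOX7 arrays lay above both control arrays in 7 of 10 mitotic kinesins and 4 of 13 transport kinesins, against 29.6% of all genes. The median of the mitotic class changed to between 0.085 and 0.18 when 1 array was left out, and that of the transport class to between -0.00027 and 0.19. The ranges of the classes thus crossed each other, and these descriptions carry no test of a difference between them. The 8 tested kinesins of other or mixed roles did not pass and had a median of 0.0085, from -0.11 (KIF25) to 0.14 (KIF24, a kinesin of the centriole), and 0 of the 8 had an unadjusted p under 0.05, against 32% of all genes. KIF2A, a depolymerising relative of KIF2C, differed by 0.13 (adjusted p = 0.33). It averaged 9.30 in the SOX7 arrays and 9.17 in the control arrays. The others of these 8 had group means of 6.23 to 6.79, close to the filter. KIF9, KIF12 and KIF19 were below the filter.

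**Figure D4:**
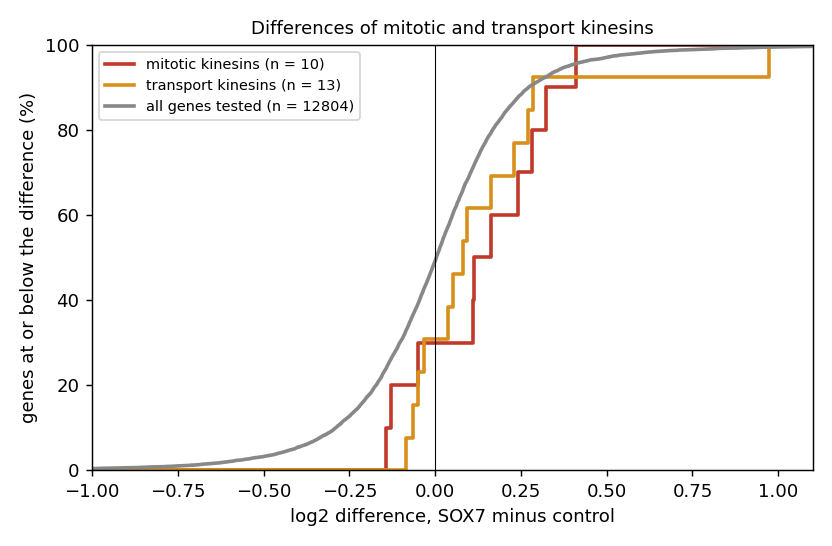
Cumulative share of genes (y axis, %) at or below each log2 difference (x axis, SOX7 minus control) for the 10 mitotic kinesins, the 13 transport kinesins and all 12804 genes tested. Both kinesin curves lie to the right of that of all genes over most of the range, and the step of the transport curve at 0.97 is KIF1A.

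The promoters of the mitotic and transport classes were then described by their letters, which the choice of members did not use. The CHR words TTTGAA and TTCGAA were searched on both strands of the RefSeq windows, of which 61 of the 74 members had one, and the first start listed was taken for genes with several. A CHR word was in 8 of 10 mitotic kinesins, 1 of 11 tested transport kinesins (KIF5B) and 16.6% of all 27305 promoters. CCAAT was in 8 of 10 mitotic kinesins, 3 of 11 transport kinesins and 35.7% of all promoters. Both stood in 7 of 10 mitotic kinesins, 1 of 11 transport kinesins and 6.58% of all promoters. The checkpoint genes held a CHR word in 3 of 3 windows (BUB1, BUB1B and MAD2L1), the NDC80 complex in 3 of 4 and the constitutive centromere genes in 5 of 13. The E2F words TTTCCCGC, TTTCGCGC, TTTGCCGC and TTTGGCGC were in 5 of 55 tested members, against 3.33% of all promoters.

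Among the 8 members that rose, the windows of PLK1, BUB1 and CENPN held both a CHR and a CCAAT word. Those of KIF2C, KIF1A, CENPE, CENPV and KIF21A held neither. Both words thus stood in 37.5% of the risen members, against 19 of the 55 tested members with a window (34.5%). The promoters of KIF11, which has both words and did not change past the threshold, and of KIF2C and KIF1A, which have neither and rose, are printed for this contrast, with the same marking by capitals. They lie at chr10:92592880-92593179, plus strand, at chr1:44739587-44739886, plus strand, and at chr2:240821354-240821653, minus strand.
KIF11: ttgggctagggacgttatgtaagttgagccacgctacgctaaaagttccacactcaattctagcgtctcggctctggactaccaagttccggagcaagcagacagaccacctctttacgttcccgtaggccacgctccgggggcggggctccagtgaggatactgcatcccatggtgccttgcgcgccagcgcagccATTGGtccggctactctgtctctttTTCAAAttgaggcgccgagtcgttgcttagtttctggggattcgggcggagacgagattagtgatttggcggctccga
KIF2C: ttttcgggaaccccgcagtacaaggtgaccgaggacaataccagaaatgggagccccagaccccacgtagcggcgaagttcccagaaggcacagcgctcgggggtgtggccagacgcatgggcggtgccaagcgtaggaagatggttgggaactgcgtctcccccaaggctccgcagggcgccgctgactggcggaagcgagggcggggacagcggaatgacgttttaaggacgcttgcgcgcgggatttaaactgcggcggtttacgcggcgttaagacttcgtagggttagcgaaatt
KIF1A: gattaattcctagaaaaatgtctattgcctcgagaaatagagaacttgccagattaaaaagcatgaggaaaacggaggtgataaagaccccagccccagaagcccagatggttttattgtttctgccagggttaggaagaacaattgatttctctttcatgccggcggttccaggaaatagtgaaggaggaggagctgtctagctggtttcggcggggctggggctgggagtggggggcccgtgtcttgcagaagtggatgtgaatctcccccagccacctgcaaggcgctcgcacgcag
In the KIF11 window, ATTGG begins at base -53 and TTCAAA, the reverse complement of TTTGAA, at base -28, and the words do not overlap. A match is a run of letters and not a measured site, and a window without one says only that these letters are not in it.

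**Figure D5:**
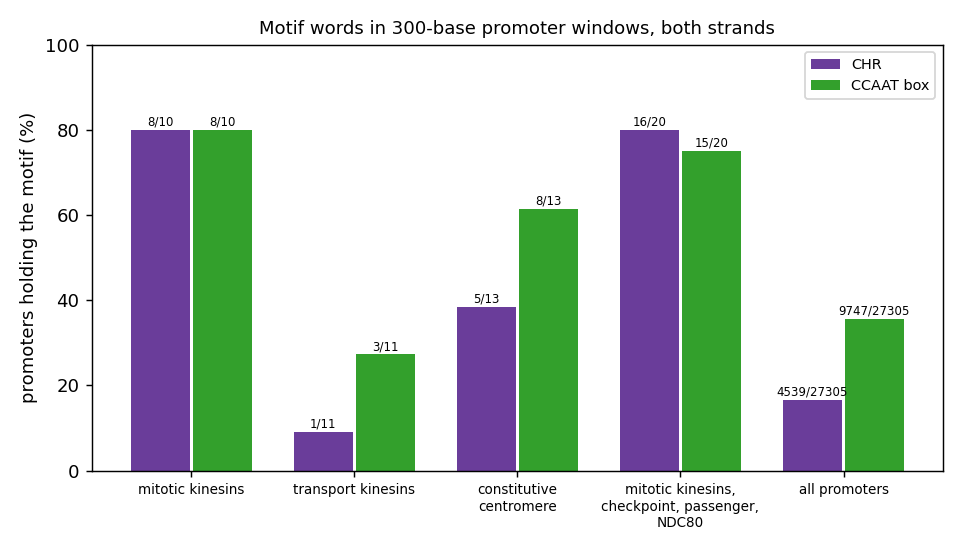
Share of 300-base promoter windows (y axis, %) that hold a CHR word or a CCAAT word on either strand, by gene class, with the number of windows above each bar. The mitotic kinesins stand at 80% for both words, the transport kinesins at 9.09% and 27.3%, and all promoters at 16.6% and 35.7%.

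Genes of the same machinery that the rule did not take in were listed as well. Of 25 other kinetochore and checkpoint genes, 1 rose and 1 fell, with a median of 0.085. Over all genes tested, 8.98% rose and 9.83% fell. PMF1, which encodes a subunit of the MIS12 complex, rose (0.33, adjusted p = 0.0425), with 9.03 and 9.17 in the SOX7 arrays, against 8.89 and 8.66 in the control arrays. DSN1, of the same complex, fell (-0.38, adjusted p = 0.0108), with 8.85 and 8.93 in the SOX7 arrays, against 9.31 and 9.23 in the control arrays. The complex thus held a called gene in each direction. Its genes MIS12 (0.13, limma adjusted p = 0.446) and NSL1 (-0.027, adjusted p = 0.875) overlapped between the groups and did not pass. The call of PMF1 was lost without control replicate 2, SOX7 replicate 1 or SOX7 replicate 2, with differences of 0.214 to 0.438 without 1 array. It was also lost without the filter (adjusted p = 0.087) and after neighbour centring (0.0791). That of DSN1 was lost without SOX7 replicate 1, with differences of -0.423 to -0.34 without 1 array.

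Of 27 tested genes listed for spindle and cytokinesis, 2 rose and 1 fell, with a median of 0.094, against 8.98% and 9.83% of all genes. The list also holds the transcription regulator genes MYBL2, FOXM1, LIN9 and LIN54. ESPL1, the gene of separase, which cuts cohesin at anaphase, rose (0.41, adjusted p = 0.00867), with 8.56 and 8.61 in the SOX7 arrays, against 8.10 and 8.25 in the control arrays. MYBL2, the gene of B-MYB, rose (0.27, adjusted p = 0.0482), at 6.61 and 6.54 in the SOX7 arrays, against 6.32 and 6.28 in the control arrays. FOXM1 did not pass (0.18, limma adjusted p = 0.193), nor did LIN9 (0.12) or LIN54 (0.059). UBE2C, which encodes a ubiquitin-conjugating enzyme of the anaphase-promoting complex, fell (-0.33, adjusted p = 0.0384), at 12.70 and 12.77 in the SOX7 arrays, against 12.94 and 13.19 in the control arrays. The MYBL2 arrays were close to the array median. Leaving out any of the 4 arrays ended the call of MYBL2 (differences of 0.238 to 0.306). That of UBE2C ended without control replicate 2, SOX7 replicate 1 or SOX7 replicate 2 (-0.455 to -0.208 without 1 array). That of ESPL1 ended without control replicate 1 or SOX7 replicate 2 (0.336 to 0.482 without 1 array). MYBL2 also missed the threshold without the filter (0.102), with an offset (0.0611) and with trend and robust prior (0.0812), and UBE2C without the filter (0.0802), with the mean of probes (0.0925) and after neighbour centring (0.236).

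Of 19 tested genes listed for kinesin light chains, adaptors and dynein, 1 rose and 1 fell, with a median of -0.043. The list also holds the motor gene KIFC2. The shares over all genes were 8.98% and 9.83%. DCTN3, the gene of a dynactin subunit, rose 1.64-fold, with 10.58 and 10.63 in the SOX7 arrays, against 9.91 and 9.88 in the control arrays (0.71, adjusted p = 1.51e-04). TRAK1, the gene of an adaptor that links mitochondria to kinesin-1, fell 1.66-fold, with 8.65 and 8.598 in the SOX7 arrays, against 9.22 and 9.49 in the control arrays (-0.73, adjusted p = 4.67e-04). Both calls held without any 1 array, and the mean of the DCTN3 probes gave 0.44 (adjusted p = 0.00315). Of 16 tested genes listed as proliferation markers, 0 rose and 1 fell, with a median of 0.0090, against 8.98% and 9.83% of all genes. They include CDKN1A, the gene of the cell cycle inhibitor p21, which does not mark proliferation. CDKN1A did not pass (-0.16, limma adjusted p = 0.25). PCNA, the gene of the sliding clamp of replication, read 12.30 and 12.14 in the SOX7 arrays, against 12.63 and 12.51 in the control arrays (-0.35, adjusted p = 0.0241). Its call was lost without control replicate 1 or SOX7 replicate 2, with differences of -0.429 to -0.269 without 1 array. It was also lost without the filter (adjusted p = 0.0538). The genes of that list, CDKN1A among them, averaged 10.78 on both SOX7 arrays, against 10.74 and 10.79 on the control arrays. Their part in the results on the members was not tested.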

How the data were processed

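The comparison used 2 SOX7 and 2 control arrays. The authors deposited log2 intensities for 48107 probes of Illumina HumanHT-12 v4 BeadChips, per the labels. Once sorted, no value differed between arrays by more than 0.000683, as after quantile normalization. Which software and background correction were applied is not stated in the labels or the table, and detection p-values were not used here. Precision is limited by having 4 arrays.

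The platform annotation gave 1 gene to 30113 probes, several to 8 and none to 17986; 30074 probes matched RefSeq genes of GRCh38.p14. Each gene was represented by its probe of highest mean, and genes under the median of all probe means (6.25) were left out. The groups were compared with limma 3.58.1 (R 4.3.3) across all 12804 genes, two-sided, with Benjamini-Hochberg adjustment at 0.05 and 95% confidence intervals. Differences are SOX7 minus control. The method was also run on simulated data. Their independent noise was drawn from limma's own fitted variances, so that run cannot show how well the method suits these arrays. Other probes were tested over 17100 probes above the filter.

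Members and lists were chosen with earlier results of these data known. Named are every member past the threshold, every mitotic kinesin and each of the 13 genes of the rule, other members next to the threshold or furthest out in their class or with a partner's role, and up to 6 called genes per other list. Alternatives were other filters, an offset of 16, the mean of probes, every probe, a trend and robust prior, a replicate block, further normalization, other thresholds, subtraction of the median difference in a window of 101 chromosomal neighbours (neighbour centring), and leaving out each array, which leaves 1 array assumed to vary like the other group. Quantile normalization and median centring, both counted among the 13 alternatives, could hardly change these arrays. Counting CENPE with the mitotic kinesins was added after seeing the data. Some uncalled genes of the other lists are named too. H1299 and PC14 samples were not analysed here.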

Additional observations from a re-analysis of the deposited data

How the results depend on the processing

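The 10 called members stayed called with an offset of 16, the mean of probes, trend and robust prior, quantile normalization, median centring and a replicate block, under which 10 to 14 members passed. Of the 10, 8 stayed called without the intensity filter (not CENPX and KIF21A), 7 after neighbour centring (not BUB1, CENPX and KIF21A) and 9 with every probe on its own (not KIF21A). The count was 17 of 49 tested at the 75th percentile filter (34.7%, against 33.4% of all genes there), 5 at an adjusted p of 0.01 and 17 at 0.1. Without 1 array it ran from 5 to 10. Over all genes the count was 1224 at 0.01 and ran from 1529 to 1984 without 1 array. With the replicate number as a block, 13 members and 2834 genes passed; the deviations of same-numbered arrays correlated at -0.017 across genes, so the numbers were not taken as pairs. The median of the mitotic kinesins was 0.106 for the mean of probes and ran from 0.0851 to 0.184 without 1 array. That of the transport kinesins was 0.218 at the 75th percentile filter, where 6 were left, and ran from -0.000267 to 0.187 without 1 array. Signs turned, with no call on either side, for the mean of probes in BUB3 (-0.0762), KIF11 (0.0488) and KIF18A (-0.109) and after neighbour centring in TTK (-0.00859). Without 1 array they turned within the ranges of AURKB (-0.0397 to 0.00797), BUB3 (-0.133 to 0.155), KIF11 (-0.131 to 0.031), KIF3C (-0.183 to 0.0118), NDC80 (-0.0485 to 0.128), SPC24 (-0.0938 to 0.0019) and TTK (-0.0556 to 0.121). The cause of these shifts was not tested. No detection p-values were used, so a level near the array median is not separated from background.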
